A study of Mus musculus with 45 samples.

Results

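In the livers of 45 mice, 10 genes of Toll-like receptor signaling were followed. They are 8 receptors (*Tlr2*, *Tlr3*, *Tlr4*, *Tlr5*, *Tlr7*, *Tlr8*, *Tlr9* and *Tlr13*), the co-receptor *Cd14* and the adaptor *Myd88*. These 10 of the 39179 counted genes were chosen on the basis of their measured counts in these same livers, so their changes with dose are given as a description and carry no test. All 10 had more than 4 reads in at least 1 liver, as did 17464 genes in all.

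Toll-like receptors are sensors that bind molecules shared by many microbes. Receptors at the cell surface recognize parts of the bacterial envelope or flagellin, and receptors in endosomes recognize nucleic acids. Nearly all signal through the adaptor MyD88 to kinases of the IRAK family and on to NF-κB, which switches on cytokine genes. The liver receives bacterial products from the gut through the portal vein. Kupffer cells, the resident macrophages of the liver, carry most of these receptors, whereas the flagellin receptor TLR5 is known to be made by hepatocytes.

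The mice were female C57BL/6 and were gavaged every 4 days for 28 days with sesame oil vehicle or with TCDD, a dioxin that activates the aryl hydrocarbon receptor. The 8 doses rose in steps of about 3-fold from 0.01 to 30 µg/kg (0.01, 0.03, 0.1 and 0.3 µg/kg, then 1, 3, 10 and 30 µg/kg), and each of the 9 groups held 5 mice, with 1 whole-liver RNA library per mouse. The labels of every sample also give ovariectomized animals and the word daily beside the 4-day interval, neither of which is in the study's methods, where treatment began on postnatal day 28. Mice were numbered 1 to 5 within a group in the order of deposit, and a number only names a mouse.

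Between 11767284 and 56509899 reads fell on genes in a liver (median 17225047). In all, 3 livers were set apart from their groups by high *Cyp1a1*, high macrophage markers or low *Xist*. Mouse 5 at 0.01 µg/kg had 69.7 CPM (counts scaled to the reads on genes of each liver, with TMM factors) of *Cyp1a1*, the classical aryl hydrocarbon receptor target, against 1.18 to 4.54 CPM in the other 4 mice of that dose and 25.3 to 71.8 CPM at 0.03 µg/kg. The same liver had the highest level of its group for 8 of the 10 genes, and its summed macrophage markers reached 1420 CPM. Mouse 1 at 3 µg/kg had the highest level of its group for 6 of the 10 genes and summed macrophage markers of 1030 CPM. Mouse 5 at 0.1 µg/kg, the liver with the most reads, was the highest of its group for 7 of the 10 genes. No liver of that group passed 532 CPM of summed macrophage markers, and this mouse was not left out. Mouse 2 at 0.01 µg/kg had 2.93 CPM of *Xist*, which is transcribed from the inactive X chromosome, against 1112 to 2844 CPM in the other 44 livers, and no read on the 4 Y-linked genes looked at. For most of the 10 genes, fold changes at 0.01 and 3 µg/kg are given with and without the 3 livers set apart. Other values are given without these livers only where stated.

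*Tlr5*, the receptor for bacterial flagellin, was the gene of the 10 with the lowest level at high dose relative to vehicle. The gene lies on chromosome 1 (chr1:182954788-182976044, plus strand, GRCm38). Vehicle livers held 6.58, 11.6, 10.3, 11.5 and 8.85 CPM in mice 1 to 5. From 0.01 to 0.3 µg/kg the levels ran from 5.89 to 13.8 CPM, and each of these 4 groups overlapped the vehicle group. At 1 µg/kg the values were 8.76, 8.53, 7.68, 6.93 and 8.53 CPM, all inside the vehicle range. The 3 µg/kg livers gave 5.04, 5.15, 5.75, 5.54 and 7.49 CPM. Of these, 4 were below every vehicle liver and mouse 5 was inside the vehicle range.

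At 10 µg/kg *Tlr5* measured 4.28, 3.43, 3.99, 3.13 and 4.21 CPM, and the 30 µg/kg livers gave 2.03, 1.49, 1.56, 1.73 and 1.12 CPM. All livers at 10 µg/kg were below all vehicle livers and below all livers at 3 µg/kg, and all livers at 30 µg/kg were below all livers at 10 µg/kg. The mean of 9.77 ± 2.11 CPM in vehicle compared with 5.80 ± 0.990 CPM for the 3 µg/kg group, 3.81 ± 0.507 CPM for the 10 µg/kg group and 1.58 ± 0.332 CPM for the 30 µg/kg group (SD, n = 5). For these doses the log2 fold changes against vehicle were -0.75 ± 0.19 (SE), -1.36 ± 0.19 and -2.60 ± 0.21, the last a 6.07-fold lower level. Of the 17464 genes tested, 107 (0.613%) had a lower log2 fold change at 30 µg/kg. The values at 30 µg/kg rest on 14 to 45 reads per liver.

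**Figure D1:**
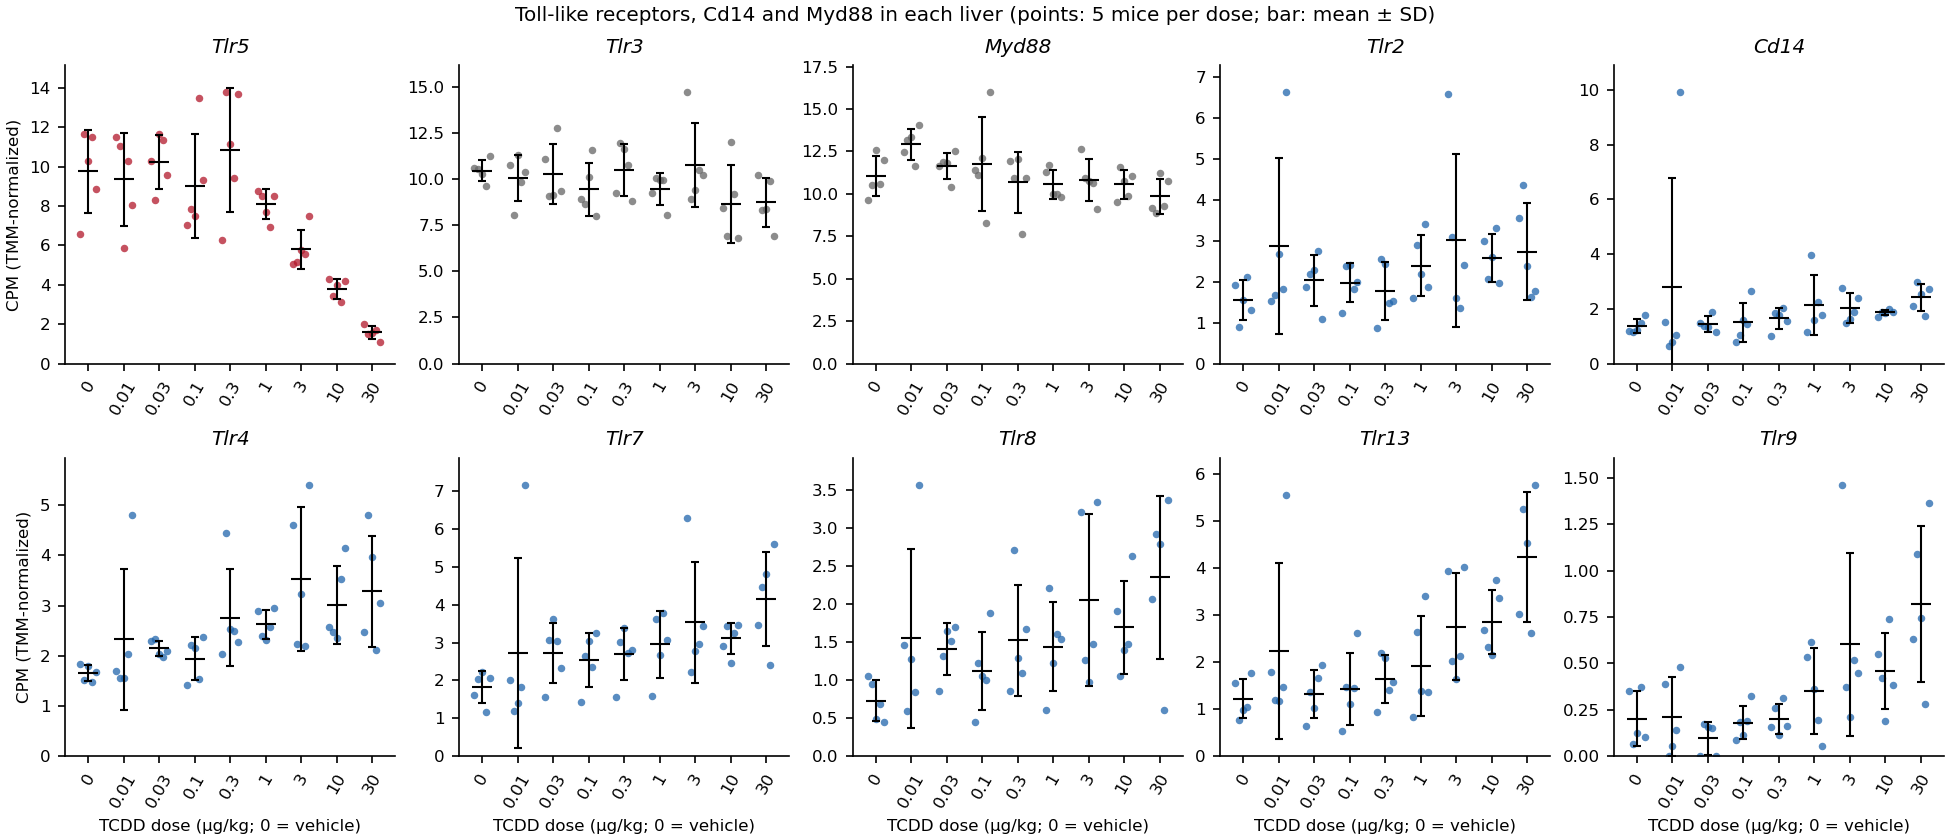
TMM-scaled CPM (vertical axis, linear and starting at 0) of each of the 10 genes by TCDD dose in µg/kg (horizontal axis). Points are single livers and bars are the mean ± SD of 5 mice. *Tlr5* is between 1.12 and 2.03 CPM at 30 µg/kg against 6.58 to 11.6 CPM in vehicle, while *Tlr13* and *Tlr7* are higher than every vehicle liver at 10 and 30 µg/kg. The isolated high points at 0.01 µg/kg are mouse 5.

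The receptors of endosomes that are typical of immune cells were higher at the top doses. *Tlr13*, which recognizes bacterial ribosomal RNA, measured 1.56, 0.763, 0.986, 1.05 and 1.77 CPM in vehicle livers. At 10 µg/kg it measured 2.69, 2.32, 2.16, 3.74 and 3.37 CPM, and the 30 µg/kg livers gave 3.02, 5.27, 4.53, 2.62 and 5.77 CPM. Every liver at these 2 doses was above every vehicle liver. The log2 fold changes for 3, 10 and 30 µg/kg were 1.14 ± 0.40, with overlap, 1.22 ± 0.40 and 1.77 ± 0.40, the last a 3.41-fold higher level.

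*Tlr7*, a sensor of uridine-rich RNA, measured 1.63, 2.04, 2.22, 1.18 and 2.07 CPM in vehicle. The 10 µg/kg livers gave 2.92, 3.43, 2.47, 3.26 and 3.47 CPM and the 30 µg/kg livers 3.47, 4.46, 4.81, 2.40 and 5.61 CPM. Its livers at 10 and at 30 µg/kg were also all above the vehicle livers, and the log2 fold change at 30 µg/kg was 1.17 ± 0.35. *Tlr8*, its neighbor on the X chromosome and a sensor of RNA breakdown products, measured 1.06, 0.954, 0.493, 0.681 and 0.455 CPM in vehicle and 2.07, 2.92, 2.79, 0.613 and 3.37 CPM at 30 µg/kg. For *Tlr8*, 4 of the 5 livers at 30 µg/kg were above the vehicle range and mouse 4 was inside it, with a log2 fold change of 1.70 ± 0.45. *Tlr9*, the receptor for unmethylated CpG DNA, was near the limit of detection, with 0 to 23 reads per liver and 3 livers at 0. It measured 0.354, 0.0636, 0.123, 0.371 and 0.101 CPM in vehicle and 0.631, 1.09, 0.743, 0.279 and 1.36 CPM at 30 µg/kg, again with mouse 4 inside the vehicle range. The log2 fold change of *Tlr9* was 1.99 ± 0.59, the widest error of the 10 genes at that dose.

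*Tlr3*, the endosomal receptor for duplex RNA that signals through TRIF and not MyD88, did not follow the other endosomal receptors. It measured 10.6, 10.6, 10.3, 9.59 and 11.2 CPM in vehicle and 10.2, 8.30, 8.35, 9.86 and 6.89 CPM at 30 µg/kg. The 2 groups overlapped, with a log2 fold change of -0.26 ± 0.14. An antisense gene that is not in the counts shares 381 bases (7.3%) of the *Tlr3* exons.

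Among the receptors of the cell surface, *Tlr4*, which with MD-2 recognizes lipopolysaccharide, was higher at most doses. Vehicle livers were tightly grouped at 1.84, 1.53, 1.79, 1.49 and 1.67 CPM. At 30 µg/kg *Tlr4* measured 2.48, 4.81, 3.96, 2.12 and 3.05 CPM, with a log2 fold change of 0.98 ± 0.28. All 5 livers were above all vehicle livers at 6 of the 8 doses (0.03, 0.3, 1, 3, 10 and 30 µg/kg), and no neighboring doses were separated from each other. Its log2 fold change was 0.37 ± 0.29 for 0.03 µg/kg, 0.75 ± 0.28 for 0.3 µg/kg and 1.08 ± 0.28 for 3 µg/kg.

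*Tlr2*, the receptor for bacterial lipoproteins, was more variable. It measured 1.91, 0.890, 1.54, 2.10 and 1.31 CPM in vehicle and 3.56, 4.35, 2.37, 1.62 and 1.76 CPM at 30 µg/kg, where 3 livers were above the vehicle range and 2 were inside it. The log2 fold change was 0.83 ± 0.38. *Cd14*, which hands lipopolysaccharide to the TLR4 complex, measured 1.20, 1.14, 1.23, 1.49 and 1.77 CPM in vehicle and 2.12, 2.98, 2.55, 1.73 and 2.73 CPM at 30 µg/kg. Mouse 4 at 30 µg/kg was inside the vehicle range and the other 4 livers were above it, with a log2 fold change of 0.81 ± 0.45.

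*Myd88*, the adaptor shared by all of these receptors except TLR3, stayed near its vehicle level. It measured 9.62, 10.5, 12.6, 10.6 and 12.0 CPM in vehicle and 9.15, 8.87, 11.2, 9.30 and 10.7 CPM at 30 µg/kg. The groups overlapped at all 8 doses, and the log2 fold changes ran from -0.17 ± 0.12 at 30 µg/kg to 0.23 ± 0.12 at 0.01 µg/kg. With library totals alone as the scaling, the value of *Myd88* at 30 µg/kg was 0.05 and that of *Tlr3* was -0.04. *Myd88* shares 290 bases (11.3%) of its exons with *Acaa1a* on the opposite strand, which had up to 9946 reads in a liver, and the strand setting of the counting is not given in the sources used here, so some of its reads may belong to that gene.

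At 30 µg/kg, then, 3 of the 10 genes (*Tlr4*, *Tlr7* and *Tlr13*) had all 5 livers above all vehicle livers and 1 (*Tlr5*) had all 5 below. The same held at 10 µg/kg. Over all 17464 genes the corresponding shares were 10.3% above and 9.57% below for the 30 µg/kg group, and 8.1% above and 6.13% below for the 10 µg/kg group. The shares above were 1.45%, 0.933%, 2.74% and 4.6% for 0.03, 0.3, 1 and 3 µg/kg, the other doses at which the *Tlr4* groups were separated. Nothing is read from these shares, since the genes were selected on the same contrasts.

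**Figure D2:**
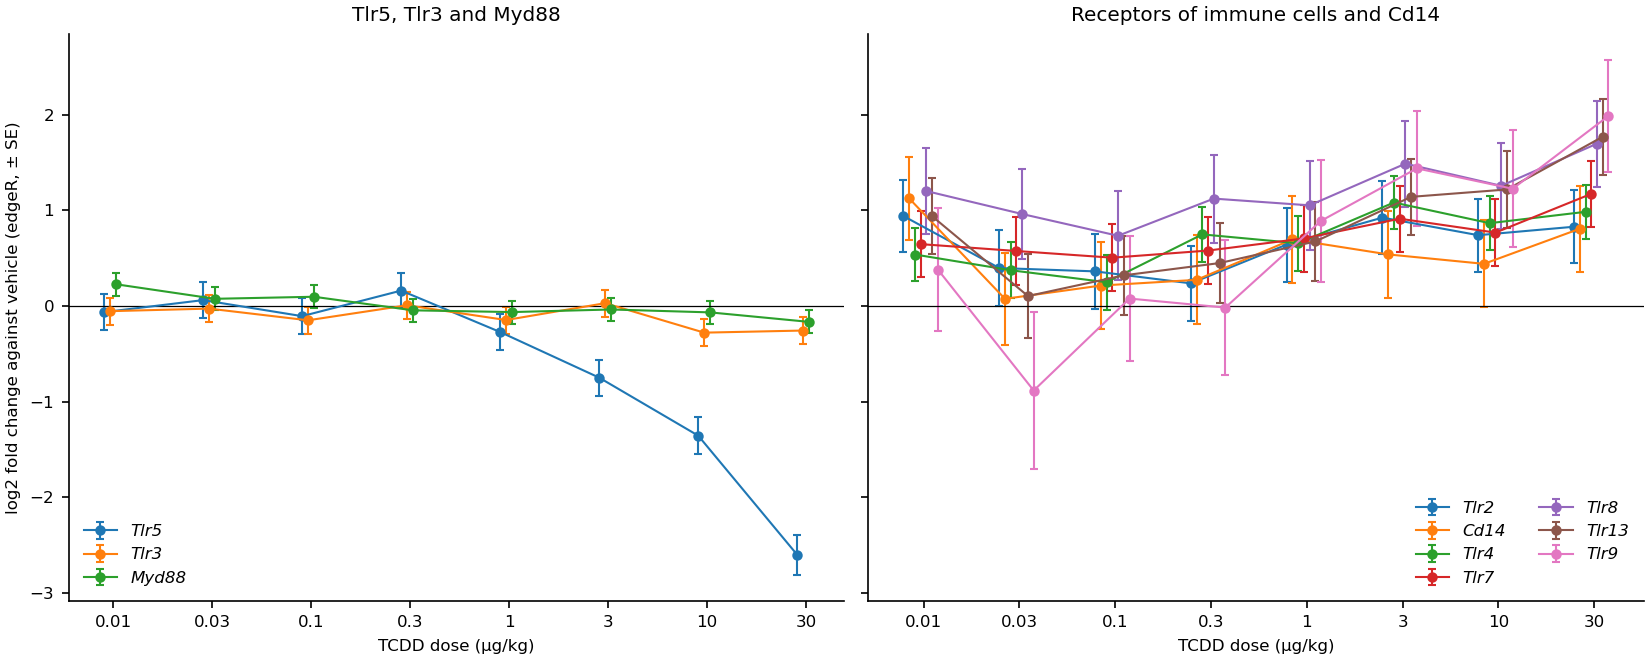
Log2 fold change against vehicle (vertical axis, ± SE from the edgeR fit) by TCDD dose in µg/kg (horizontal axis, evenly spaced doses) for the 10 genes, 5 mice per dose against 5 vehicle mice. *Tlr5* is at -2.60 at 30 µg/kg and *Tlr13* at 1.77, and *Tlr3* and *Myd88* stay within 0.28 of 0.

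The values at 0.01 µg/kg depended on mouse 5. Values without this liver, and those without mouse 1 at 3 µg/kg, come from 1 fit that left out both. With mouse 5 the log2 fold change of *Cd14* was 1.12 ± 0.44 and without it -0.40 ± 0.31. Leaving it out changed *Tlr7* from 0.65 to -0.17, *Tlr9* from 0.38 to -0.17, *Tlr13* from 0.94 to 0.21, *Tlr2* from 0.94 to 0.31, *Tlr4* from 0.54 to 0.03 and *Tlr8* from 1.20 to 0.59. *Tlr5* was -0.06 with and -0.01 without it. At 3 µg/kg, leaving out mouse 1 changed *Tlr2* from 0.92 to 0.48, *Tlr9* from 1.44 to 0.91 and *Tlr7* from 0.91 to 0.62. It also changed *Tlr8* from 1.49 to 1.29, *Tlr13* from 1.14 to 0.99 and *Tlr4* from 1.08 to 0.97. *Cd14* went from 0.54 to 0.41 and *Tlr3* from 0.03 to -0.11, while *Tlr5* was -0.75 with and -0.72 without that mouse. *Tlr7*, *Tlr8* and *Tlr13* are X-linked and measured 1.19, 0.597 and 1.19 CPM in the liver with little *Xist*. Without that liver their log2 fold changes at 0.01 µg/kg were 0.82, 1.38 and 1.08 in place of 0.65, 1.20 and 0.94. Leaving it out also moved *Tlr9* from 0.38 to 0.62, *Cd14* from 1.12 to 1.35 and *Tlr5* from -0.06 to -0.13, and the other 4 genes by at most 0.13.

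To compare levels between genes, CPM were divided by the kilobases of each gene's exons (RPKM). In vehicle livers *Tlr5* was the most abundant receptor by its mean, at 2.04 ± 0.441 RPKM (SD, n = 5), beside *Tlr3* at 2.01 ± 0.113, and their ranges overlapped. *Myd88* stood above both at 4.29 ± 0.465 RPKM, with no overlap. The order below them was *Cd14* (0.789 RPKM), *Tlr2* (0.515), *Tlr7* (0.447), *Tlr4* (0.299), *Tlr13* (0.285), *Tlr8* (0.203) and *Tlr9* (0.0583). *Cd14* did not overlap *Tlr3* above it and *Tlr9* did not overlap *Tlr8*, whereas the other neighbors in this order overlapped. At 30 µg/kg *Tlr5* held 0.331 ± 0.0694 RPKM and only *Tlr9* was lower by its mean, at 0.236 ± 0.120, with overlapping ranges. *Tlr7* held 1.02 ± 0.305 RPKM and *Tlr13* 0.985 ± 0.320 at that dose, each above *Tlr5* in every liver.

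Markers of several cell types moved with these genes. In RNA of whole liver, more cells of a type and more RNA per cell cannot be told apart. Of all genes tested, 15.5% were higher and 14.1% lower at 30 µg/kg (edgeR, adjusted p under 0.05), the background for the marker counts. Of 12 Kupffer cell and macrophage markers, 5 rose at that dose, among them *Csf1r* (log2 fold change 1.16, adjusted p = 0.0210) and *Cd68* (1.08, adjusted p = 0.0178), while the Kupffer cell markers *Clec4f* (0.38, adjusted p = 0.359) and *Vsig4* (0.44, adjusted p = 0.379) did not pass. The summed macrophage markers ranged from 260 to 395 CPM in vehicle and, with 3, 10 and 30 µg/kg, from 354 to 1030, from 404 to 608 and from 241 to 667 CPM. The lowest of these at 30 µg/kg was mouse 4, the liver that was inside the vehicle range for *Tlr2*, *Tlr8*, *Tlr9* and *Cd14*. The same liver was above every vehicle liver for *Tlr4* (2.12 CPM), *Tlr7* (2.40 CPM) and *Tlr13* (2.62 CPM), and it measured 1.73 CPM of *Tlr5*.

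Of the 8 monocyte and neutrophil markers tested 6 rose, and their sum was 24 to 44.9 CPM in vehicle and 31.9 to 93.9 CPM at 30 µg/kg. *Ly6g*, the defining neutrophil marker, never had more than 4 reads and was at 0 reads in both of these groups. Of the 9 hepatocyte markers tested 5 fell, and their sum was 120000 to 155000 CPM in vehicle and 109000 to 162000 CPM at 30 µg/kg. Albumin was not called, at -0.08 (adjusted p = 0.650). Beside 15.5% of all genes, the markers called higher were 4 of 7 for dendritic cells, 2 of 5 for B cells, 2 of 7 for T and NK cells, 5 of 7 for endothelial cells, 3 of 7 for stellate cells and 0 of 5 for cholangiocytes. The sums at 30 µg/kg against vehicle were 15.0 to 20.5 against 9.96 to 15.7 CPM for dendritic cells, 2.73 to 7.67 against 1.91 to 2.97 for B cells, 3.23 to 6.09 against 1.72 to 3.75 for T and NK cells, 169 to 281 against 144 to 192 for endothelial cells, 501 to 636 against 267 to 367 for stellate cells and 4.56 to 5.29 against 3.90 to 5.81 for cholangiocytes. The part of cell number in the levels of the 10 genes was not tested.

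Relative to the macrophage markers, most of the receptors of immune cells overlapped their vehicle levels. The mean log2 CPM of the 12 markers was subtracted from the log2 CPM of each gene in each liver. *Tlr13* was -3.79 in vehicle (-4.05 to -3.43) and -2.88 at 30 µg/kg (-3.14 to -2.33), with no overlap. *Tlr7*, *Tlr4*, *Tlr2*, *Cd14*, *Tlr8* and *Tlr9* overlapped between the 2 groups on this scale. *Tlr7* was -3.23 in vehicle and -2.90 at 30 µg/kg, and *Cd14* was -3.60 and -3.62. The same 2 values were -3.33 and -3.23 for *Tlr4* and -3.47 and -3.53 for *Tlr2*. For *Tlr8* they were -4.48 ± 0.661 (SD, n = 5) and -3.82 ± 0.271, and for *Tlr9* -6.03 ± 0.743 and -5.20 ± 0.275. The overlap of *Tlr8* and *Tlr9* came with a wide spread in vehicle and does not show an unchanged level. *Tlr5* was -0.86 in vehicle (-1.42 to -0.28) and -4.20 at 30 µg/kg (-5.07 to -2.91). *Tlr3* went from -0.74 to -1.80 and *Myd88* from -0.66 to -1.62, both with overlap. Their own levels stayed near vehicle, so part of a lower value on this scale comes from the higher markers. The share of all genes without overlap on this scale was not computed.

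**Figure D3:**
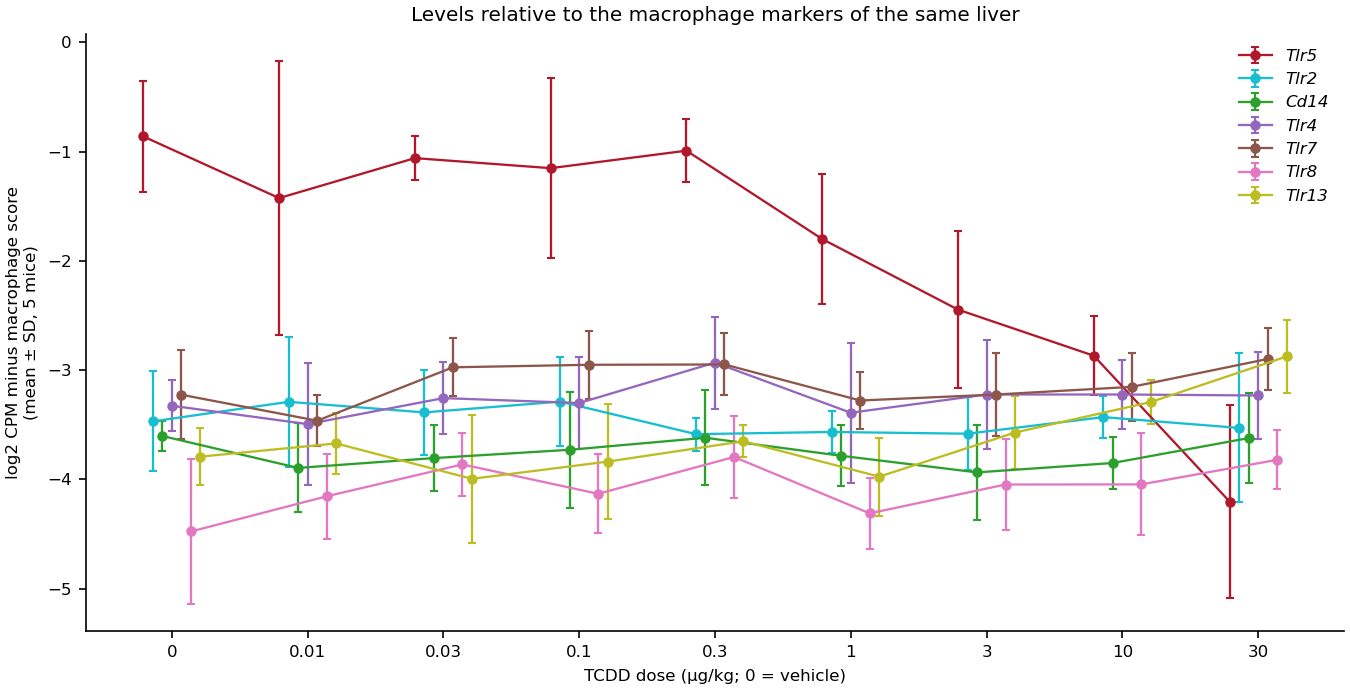
Log2 CPM of *Tlr5*, *Tlr2*, *Cd14*, *Tlr4*, *Tlr7*, *Tlr8* and *Tlr13* minus the mean log2 CPM of 12 macrophage markers in the same liver (vertical axis). The horizontal axis is the TCDD dose in µg/kg, and the mean and SD of 5 mice are drawn. By single livers, which are not drawn, *Tlr13* at 30 µg/kg was above vehicle without overlap and *Tlr5* was below it. *Tlr2*, *Cd14*, *Tlr4*, *Tlr7* and *Tlr8* overlapped vehicle. The share of all genes without overlap on this scale was not computed.

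Whether the genes varied together from mouse to mouse was asked within the dose groups, which the selection of the genes did not use. Each liver's deviation from its dose-group mean (log2 CPM, prior count of 2) was correlated over the 45 livers, with 100000 two-sided permutations within groups and Benjamini-Hochberg adjustment over the 45 pairs. All 21 pairs among *Tlr2*, *Tlr4*, *Tlr7*, *Tlr8*, *Tlr9*, *Tlr13* and *Cd14* were positively correlated, with Pearson's r from 0.40 to 0.81. The closest pair was *Tlr7* and *Cd14* (r = 0.81, Spearman's rho = 0.71, permutation p = 2e-05, adjusted permutation p = 0.00018), followed by *Tlr7* and *Tlr13* (r = 0.79, rho = 0.72, adjusted permutation p = 0.000112). Without the 2 livers farthest from the median of the first gene, these were 0.69 and 0.73. By Spearman's rank 20 of the 21 pairs were called. Without the 2 livers that stood apart by high macrophage markers (mouse 5 at 0.01 µg/kg and mouse 1 at 3 µg/kg), 11 of the 21 pairs were called and r ran from 0.23 to 0.71. Their mean log2 CPM of these markers deviated from the group mean by 1.92 and 1.01. Mouse 4 at 30 µg/kg (-1.15) and mouse 1 at 0.1 µg/kg (-1.06) lay about as far below their groups as the second of these lay above. Both were kept, so only high livers were left out. No liver with low markers lay as far out as mouse 5 at 0.01 µg/kg.

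No relation of *Tlr5* was called. Its r with the other 9 genes and the 2 marker scores ran from -0.25 to 0.13, none of the 11 relations had an unadjusted permutation p under 0.05, and none was called by Spearman's rank. Over 45 livers a p that misses the threshold does not show that *Tlr5* varied independently. *Tlr3* was correlated with *Tlr2* (r = 0.41, rho = 0.41, adjusted permutation p = 0.0244), a relation that was not called without the 2 farthest livers (r = 0.33, adjusted permutation p = 0.0800). *Myd88* had no called pair.

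The 7 receptor and co-receptor genes of immune cells also followed the macrophage score, the mean log2 CPM of the 12 macrophage markers, over the 20 relations with marker scores. The r was 0.87 for *Tlr7*, 0.83 for *Tlr13*, 0.82 for *Cd14*, 0.80 for *Tlr8*, 0.76 for *Tlr2*, 0.71 for *Tlr4* and 0.58 for *Tlr9*. The adjusted permutation p was 4e-05 for the first 5 of these, which comes from the smallest p that 100000 permutations can give (1e-05), and 0.0004 for *Tlr4* and *Tlr9*. All 7 were also called without the 2 livers that stood apart, with *Tlr5* at an r of -0.02 over all 45 livers (adjusted permutation p = 0.932). *Tlr2* (r = -0.40, adjusted permutation p = 0.0192) and *Tlr3* (r = -0.49, adjusted permutation p = 0.00737) were negatively correlated with the hepatocyte score. The relation of *Tlr2* was not called with library totals alone as the scaling (adjusted permutation p = 0.121) or without the 30 µg/kg group (0.109). That of *Myd88* was not called over all livers (r = 0.44, adjusted permutation p = 0.059) but was without the 2 livers that stood apart (r = 0.51, adjusted permutation p = 0.023).

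**Figure D4:**
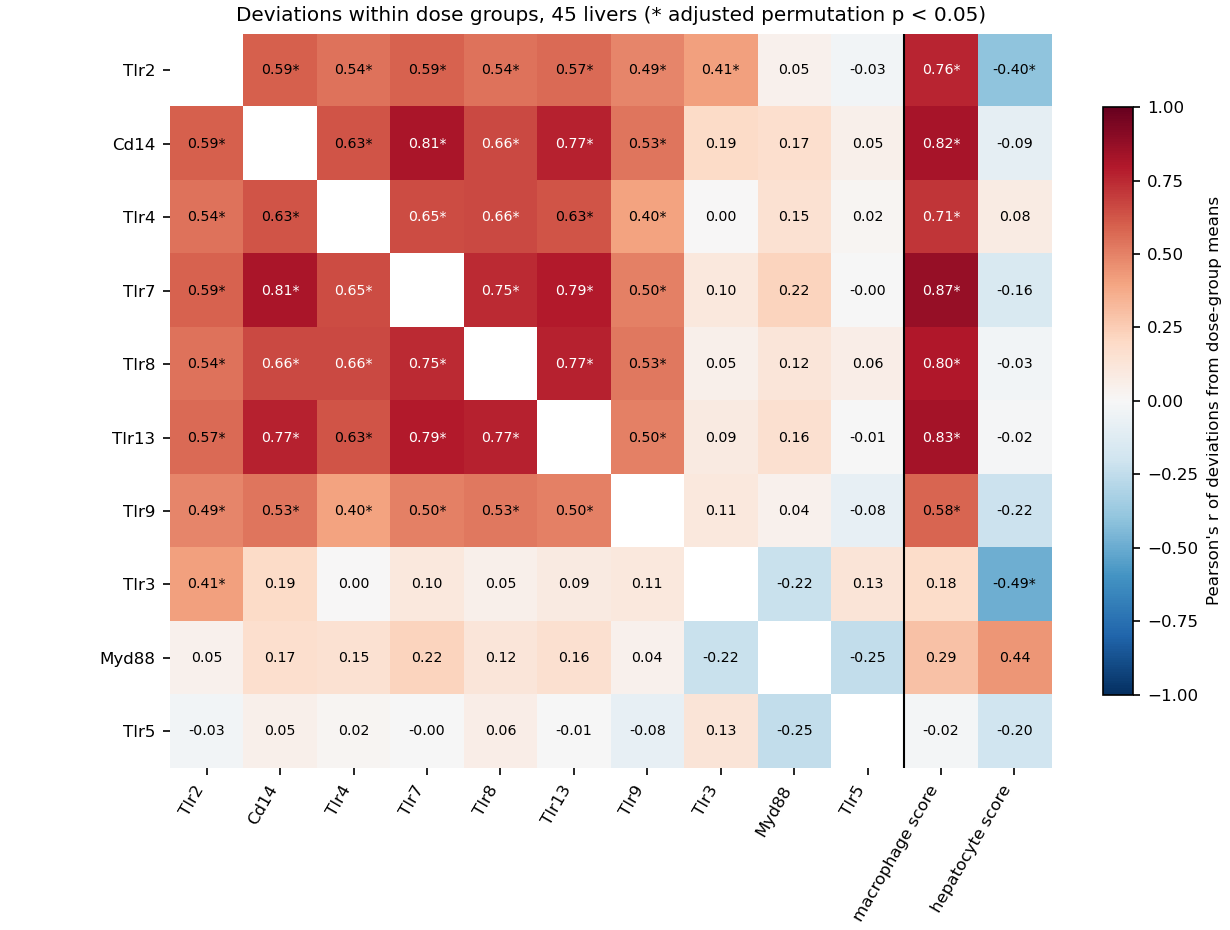
Pearson's r (color scale) between deviations from the dose-group means over 45 livers, for pairs of the 10 genes and for the macrophage and hepatocyte marker scores. Stars mark an adjusted permutation p under 0.05. The block of 7 receptor and co-receptor genes has r from 0.40 to 0.81, and the row of *Tlr5* has none past 0.25 in size.

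The other genes of the pathway were tested from a list of 76 genes in 8 functional groups, 75 of which were detected, the exception being *Ifnb1*. At 30 µg/kg 25 rose and 11 fell, against 15.5% of all genes higher and 14.1% lower (edgeR, adjusted p under 0.05). At 10 µg/kg 8 rose and 5 fell, against 8.47% and 7.47% of all genes. At 3 µg/kg 9 rose and 3 fell, against 4.34% and 3.2%, and without mouse 1 of that dose 8 rose and 2 fell. The median log2 fold change of the 75 genes at 30 µg/kg was 0.25, beside 0.02 over all genes. With library totals alone as the scaling, the median over all genes was 0.23, and 91.7% of the called pathway genes were higher in place of 69.4%.

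At 1 µg/kg 1 pathway gene was called by edgeR, *Cd36* (log2 fold change 0.84, adjusted p = 0.00351), and 3 by DESeq2, beside 1.76% and 2.82% of all genes in either direction. From 0.01 to 0.3 µg/kg edgeR called none of the 75, and the shares of all genes it called were 0.0%, 0.0573%, 0.0229% and 0.464% for 0.01, 0.03, 0.1 and 0.3 µg/kg. The pathway genes at an unadjusted p under 0.05 numbered 12, 10, 4 and 12 in that order, beside 10.1%, 11.7%, 5.15% and 10.5% of all genes. DESeq2 called 1 pathway gene at 0.01 µg/kg (*Il1b*) and none at the other 3 doses, beside 0.195%, 0.453%, 0.0286% and 0.934% of all genes. The call of *Il1b* was not repeated without mouse 5 at 0.01 µg/kg.

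Of the 4 other receptors 2 rose at 30 µg/kg, beside 15.5% of all genes. *Tlr1*, a partner of TLR2 in lipoprotein binding, rose from 0.856 ± 0.523 CPM in vehicle to 3.50 ± 0.991 CPM at 30 µg/kg (SD, n = 5, log2 fold change 1.98 ± 0.45, adjusted p = 0.000652) and was also called at 3 and 10 µg/kg. *Tlr11*, a receptor for profilin and flagellin in mice, rose from 0.310 to 1.05 CPM (1.74 ± 0.37, adjusted p = 0.000322) and was called at the same doses. *Tlr6*, the alternative partner of TLR2, was at 0.65 ± 0.46 (adjusted p = 0.305). *Tlr12*, which pairs with TLR11, was at 0.02 ± 0.27 (adjusted p = 0.962). *Tlr1* and *Tlr6* are close copies of each other, so reads they share are not in these counts and their values are uncertain.

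Among 10 co-receptors and chaperones 4 rose and 2 fell, beside 15.5% of all genes higher and 14.1% lower. The part that fell was near the share of all genes. *Lbp*, the plasma protein that carries lipopolysaccharide to CD14 and is made by hepatocytes, fell from 67.6 ± 10.2 to 23.95 ± 6.68 CPM (log2 fold change -1.50 ± 0.22, adjusted p = 1.23e-06), with all 5 livers at 30 µg/kg between 16.6 and 32.7 CPM against 54.2 to 80.2 CPM in vehicle. *Cd36*, a scavenger receptor and fatty acid transporter that assists the TLR2 complex, rose from 159 ± 45.1 to 492 ± 52.8 CPM (1.63 ± 0.18, adjusted p = 1.77e-09). *Cd180*, a TLR4 relative of B cells and macrophages, rose (1.29 ± 0.43, adjusted p = 0.0197), a call that was lost without vehicle mouse 4 (edgeR, adjusted p = 0.0536).

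Of the 5 other adaptors 1 rose and 2 fell, beside 15.5% of all genes higher and 14.1% lower. *Pik3ap1*, which links the receptors to phosphoinositide 3-kinase, rose from 29.6 ± 8.32 to 81.2 ± 10.6 CPM (1.46 ± 0.19, adjusted p = 4.99e-08). *Tirap*, the bridge between TLR2 or TLR4 and MyD88, fell by 0.44 on the log2 scale (adjusted p = 0.0134), and *Ticam1*, which encodes the TLR3 adaptor TRIF, fell by 0.32 (adjusted p = 0.0454). Of 17 kinases and ubiquitin ligases 1 rose, 3 fell and 13 were not called. The share that fell, 17.6%, was near the 14.1% of all genes, and 5.88% rose beside 15.5%. *Traf3*, an adaptor of the interferon branch, rose (0.79 ± 0.20, adjusted p = 0.00231), whereas *Tab3* (-0.36, adjusted p = 0.00860) and *Peli1* (-0.32, adjusted p = 0.0449), which act in TRAF6 signaling, fell. With 1 of the 10 mice left out at a time, the call of *Ticam1* was lost for 7 of them and that of *Peli1* for 6 (edgeR, adjusted p of up to 0.148 and 0.136, both without mouse 1 at 30 µg/kg), and that of *Tirap* only without vehicle mouse 4 (0.0776). None of *Tirap*, *Ticam1*, *Tab3* and *Peli1* was called with library totals alone as the scaling (adjusted p = 0.25, 0.53, 0.318 and 0.521).

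Of 10 transcription factors 4 rose and 1 fell, beside 15.5% of all genes higher and 14.1% lower. The part that fell was again near the share of all genes. *Fos* (1.46 ± 0.51, adjusted p = 0.0264) and *Jun* (1.24 ± 0.32, adjusted p = 0.00242), the subunits of AP-1, and *Relb* (0.86 ± 0.30, adjusted p = 0.0253), an NF-κB subunit, had the largest changes. Of 13 negative regulators 4 rose and 2 fell (30.8% and 15.4%, the latter near the share of all genes). *Socs1*, a suppressor of cytokine signaling, rose by 2.41 ± 0.73 on the log2 scale, with 0.140 CPM in vehicle and 0.799 CPM at 30 µg/kg (adjusted p = 0.0105). *Atf3*, a repressor induced by Toll-like receptor signaling, rose by 1.88 ± 0.44 (adjusted p = 0.00110) and *Tnip1*, which restrains NF-κB, by 0.58 ± 0.19 (adjusted p = 0.0190). The calls of *Socs1* and *Tnip1* were lost without mouse 5 at 30 µg/kg (edgeR, adjusted p = 0.0779 and 0.0551). That of *Fos* was lost without vehicle mouse 2, 3 or 4 or mouse 2 at 30 µg/kg (up to 0.165), and that of *Relb* without vehicle mouse 2 or mouse 2 or 5 at 30 µg/kg (up to 0.111).

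Of the 11 detected inflammatory target genes 7 rose, beside 15.5% of all genes. The median log2 fold change of the 11 was 1.39. *Nos2*, *Ptgs2* and *Tnf* had at most 18, 5 and 16 reads in any liver. They met the detection rule of more than 4 reads only through TCDD livers, where they are high. The count of 7 and the median include them, so neither is ranked against the other groups. *Tnf* rose from 0.0692 to 0.412 CPM (2.40 ± 0.65, adjusted p = 0.00413), and *Ptgs2*, the inducible cyclooxygenase, from 0.0123 to 0.114 CPM (2.71 ± 0.98, adjusted p = 0.0325). *Nos2*, the inducible nitric oxide synthase, had 0 reads in all 5 vehicle livers and 1, 7, 3, 1 and 3 reads in the livers at 30 µg/kg (adjusted p = 0.0147). Against a floor of 3 reads over the vehicle group it was at least 4.17-fold higher, and with *Nos2* at that bound the group's median was again 1.39. The call of *Nos2* was lost without mouse 2 at 30 µg/kg (edgeR, adjusted p = 0.0526), and that of *Ptgs2* for 6 of the 10 mice left out singly (up to 0.0967) and with DESeq2.

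Flagellin is also sensed in the cytosol by NAIP proteins with NLRC4. Of the 5 genes of this system 2 rose and 1 fell, beside 15.5% of all genes higher and 14.1% lower. The part that fell was near the share of all genes here too. *Nlrc4*, the signaling subunit, rose from 0.218 to 0.692 CPM (1.60 ± 0.50, adjusted p = 0.0139) and *Naip6* rose by 1.05 ± 0.40 (adjusted p = 0.0406), whereas *Naip2*, a sensor of the bacterial secretion rod, fell by 0.54 on the log2 scale (adjusted p = 0.0323). The *Naip* genes are near-identical copies, and their values are uncertain because reads that align to more than 1 place were not counted. Leaving out single mice lost the call of *Naip6* for 7 of the 10 mice (edgeR, adjusted p of up to 0.113) and that of *Naip2* for 6 (up to 0.155), and *Naip2* was not called with library totals alone (adjusted p = 0.222).

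**Figure D5:**
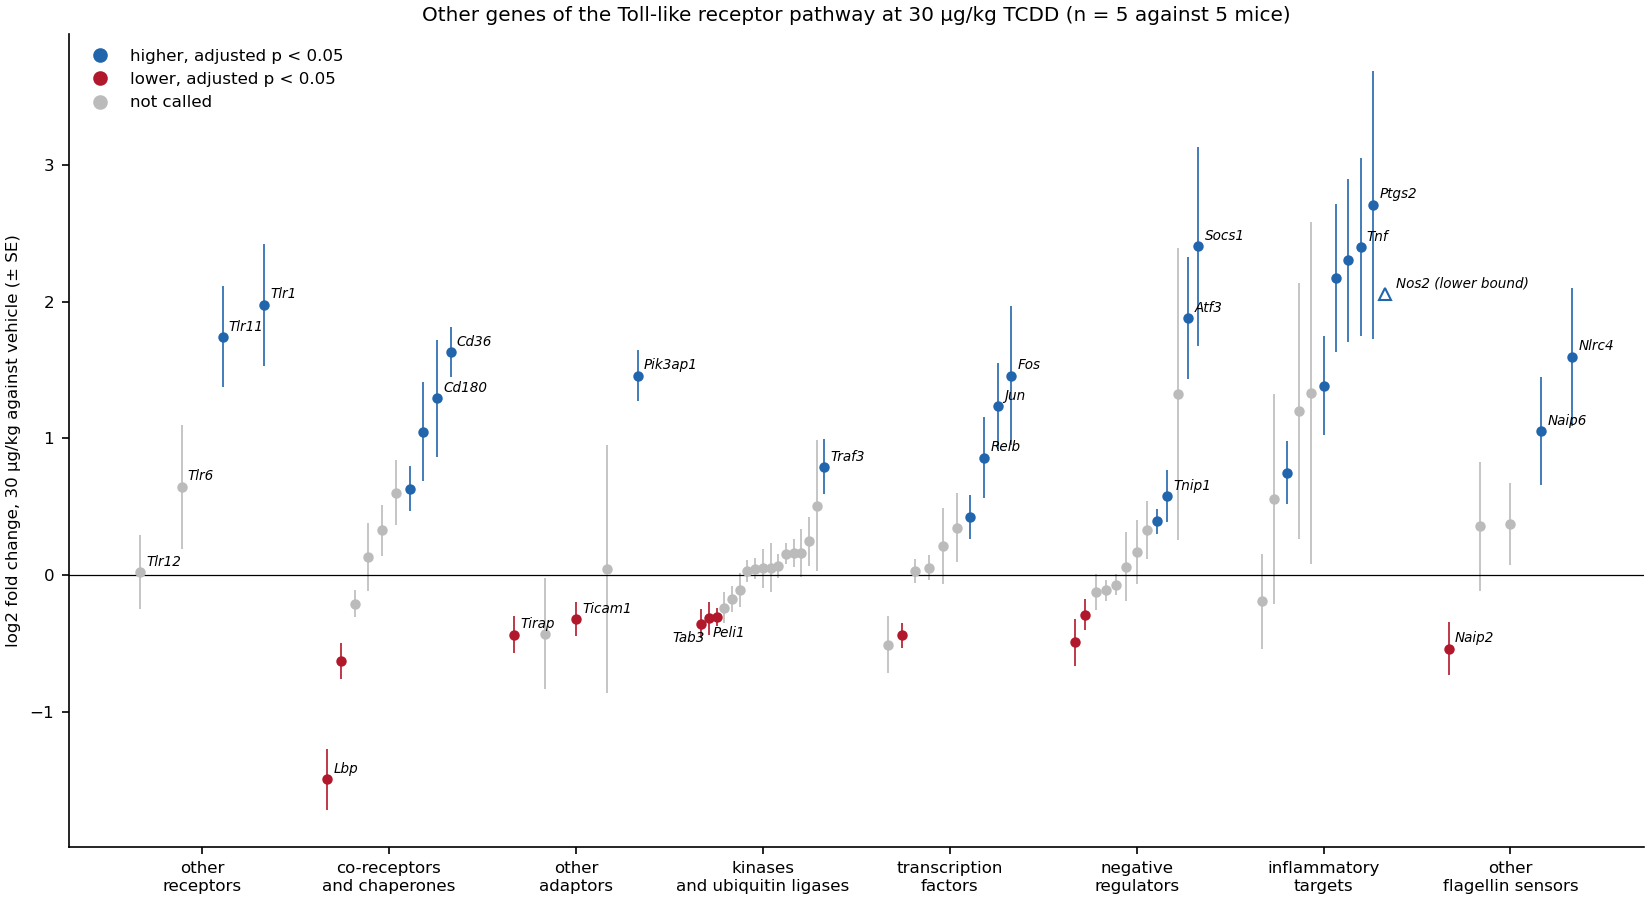
Log2 fold change at 30 µg/kg against vehicle (vertical axis, ± SE, n = 5 against 5 mice) of the 75 detected pathway genes in 8 functional groups (horizontal axis). Blue points rose, red points fell and gray points were not called (edgeR, adjusted p under 0.05), and the open triangle is the lower bound of *Nos2*. *Lbp* is the lowest gene, at -1.50. The inflammatory targets hold 7 blue symbols of 11, among them *Nos2*, *Ptgs2* and *Tnf*, which were detected only through TCDD livers.

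The genes whose group means over the 9 dose groups were most like those of *Tlr5*, among 12411 genes with a mean of at least 1 CPM, were *Csrp3* (Pearson's r = 0.99), *C2cd2*, *Hao1*, *Sult2a8* and *Prr16*. *Hao1*, a peroxisomal glycolate oxidase of hepatocytes, went from 273 ± 28.8 CPM in vehicle to 2.30 ± 3.24 CPM at 30 µg/kg, and *Sult2a8*, a hepatic bile acid sulfotransferase, from 1240 ± 206 to 119 ± 72.9 CPM. *C2cd2* shared the shape with a smaller change, from 150 to 83.0 CPM. For *Tlr13* the most alike genes were *Cxcl16*, *S100a9*, *Fam43a*, *Pcdh17* and *Acox2* (r from 0.98 to 0.99). *Cxcl16* encodes a chemokine that macrophages display on their surface and *S100a9* a calcium-binding protein of neutrophils and monocytes, whereas *Acox2* is an enzyme of peroxisomal bile acid synthesis. For *Tlr2* they were *Dram1* (r = 0.95), *Abcg3*, *Pygb*, *Clec4a1* and *Gm13509*. These correlations over 9 group means rest on the same livers and are a description.

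The sequences just before the start sites are shown for *Tlr5*, *Tlr8*, *Tlr9* and *Tlr13*. Their matched windows lie wholly or mostly before the annotated gene. RefSeq promoter windows (GRCm38.p6) were matched for 7 of the 10 genes, and the 250 bases before each RefSeq start were searched on both strands. For *Tlr3* and *Myd88* all 250 bases, and for *Tlr2* 159 of them, lie inside the gene as annotated, so these windows are not read. The *Tlr13* window has 71 such bases, and the 179 bases before them are shown. Capitals mark, on either strand, the core GAGGAA of PU.1, a factor of the myeloid lineage. They also mark the dioxin response element core GCGTG, which the aryl hydrocarbon receptor binds. The windows are chr1:182954538-182954787 (plus strand) for *Tlr5*, chrX:167264330-167264579 (minus strand) for *Tlr8*, chr9:106222348-106222597 (plus strand) for *Tlr9* and chrX:106143025-106143203 (plus strand) for *Tlr13*.
Tlr5: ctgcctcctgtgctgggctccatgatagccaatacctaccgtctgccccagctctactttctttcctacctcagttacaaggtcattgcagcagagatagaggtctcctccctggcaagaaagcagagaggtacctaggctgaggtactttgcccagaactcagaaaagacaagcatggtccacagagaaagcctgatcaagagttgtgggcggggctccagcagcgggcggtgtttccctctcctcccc
Tlr8: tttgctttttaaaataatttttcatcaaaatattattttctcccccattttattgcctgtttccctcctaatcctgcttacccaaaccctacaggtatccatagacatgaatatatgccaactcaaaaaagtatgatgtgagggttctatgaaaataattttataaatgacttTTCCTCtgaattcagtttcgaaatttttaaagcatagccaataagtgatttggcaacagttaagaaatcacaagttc
Tlr9: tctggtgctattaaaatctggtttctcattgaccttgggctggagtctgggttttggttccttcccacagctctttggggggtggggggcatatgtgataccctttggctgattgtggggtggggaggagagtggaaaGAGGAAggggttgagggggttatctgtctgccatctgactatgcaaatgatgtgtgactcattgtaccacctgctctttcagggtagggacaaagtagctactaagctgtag
Tlr13: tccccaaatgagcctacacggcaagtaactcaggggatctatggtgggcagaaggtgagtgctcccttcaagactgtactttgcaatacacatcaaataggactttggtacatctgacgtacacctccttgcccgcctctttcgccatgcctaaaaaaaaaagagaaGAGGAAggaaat

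None of the 4 windows shown held GCGTG, which 28.2% of 32851 promoters of 250 bases held. Counted back from the annotated gene start, the PU.1 core was in *Tlr8* at -77 to -72, in *Tlr9* at -112 to -107 and in *Tlr13* at -12 to -7, but not in *Tlr5*, and 23.3% of all promoters held it. The windows that were not read, that of *Tlr2* among them, held no PU.1 core. The 4 windows were chosen with the PU.1 matches known, so no contrast of *Tlr5* with the others is drawn. CCAAT was in *Tlr5* at -222 to -218 and in *Tlr8* at -40 to -36 (33.8% of all) and TATAAA in *Tlr8* (12.4%), while CAAAGTCCA, bound by HNF4A, was in none of the 4 (0.384%). A match is a description of letters and does not show a site in use.

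The study also designed a primer pair for *Tlr5* for quantitative PCR, which shows where in the gene its transcript was probed. Its authors listed *Tlr5* as called by sequencing and not by their microarray, whose probe for *Tlr5* missed the gene. For the genes they checked, they described good agreement of sequencing with PCR.
Forward primer: ctggggacccagtatgctaa
Reverse primer: acagccgaagttccaagaga
The pair matches chr1:182973406-182973425 and chr1:182973537-182973556 (GRCm38) and frames 151 coding bases in 3 of the 5 annotated *Tlr5* transcripts. In 2 of these the bases lie in exon 4, the last exon, and in the other in its only exon.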

How the data were processed

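Total RNA of 45 livers was sequenced from one end in 50 bp reads. The authors aligned the reads to GRCm38 (release 74) with Bowtie and TopHat 1.4.1 and deposited raw counts per Ensembl gene from HTSeq 0.6.1, which counts only reads with a unique alignment. Of the uniquely aligned reads, 9.113 to 17.082% fell on no gene and 1.342 to 2.069% on several, and these were not used. Counts per liver set the precision, and the sequencing pools are not in the labels, so no within-pool value could be had.

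Groups were taken from the dose labels. The counts were fitted with edgeR 4.0.16 (R 4.3.3), with TMM, genes with more than 4 reads in any liver, all 45 livers in 1 fit, and quasi-likelihood tests of each dose against vehicle, adjusted by Benjamini-Hochberg dose by dose. Scripts were tested on simulated data. The semi-parametric procedure of the study could not be repeated. Exon lengths and positions are those of GENCODE (GRCm38), a later annotation. Correlations were computed in Python 3.11.15 with numpy 2.4.6.

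The 10 genes and all lists were chosen with earlier results of these data known. Named pathway genes were all other receptors and, in each other group, the 3 called genes with the largest change at 30 µg/kg, and *Il1b* was named after its values were seen. For *Tlr5*, *Tlr2* and *Tlr13* the 5 genes most alike were named. *Csf1r*, *Cd68*, *Clec4f*, *Vsig4*, *Ly6g*, albumin, *Xist* and *Cyp1a1* were named after their values were seen. Alternatives covered the scaling, the gene filter, DESeq2 1.42.0, a minimum fold change of 2, the 2 groups alone, the prior count (0.5), the rank correlation and livers left out.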

Additional observations from a re-analysis of the deposited data

Results flagged for a closer look

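Each gene was examined in each of the 9 dose groups for a liver far from the other 4, by the gap to its nearest neighbor relative to the range of the group (90 examinations, of which chance gives about 1 in 20). This found 10 values. Mouse 5 at 0.01 µg/kg was the highest for 5 genes. It had 9.92 CPM of *Cd14* (nearest liver 1.53), 7.16 CPM of *Tlr7* (2.01), 5.55 CPM of *Tlr13* (1.78), 6.62 CPM of *Tlr2* (2.68) and 4.80 CPM of *Tlr4* (2.03). This is the liver with 69.7 CPM of *Cyp1a1* and 1420 CPM of summed macrophage markers. Mouse 1 at 3 µg/kg was the highest for *Tlr3* (14.7 CPM, nearest 10.5) and *Tlr9* (1.46 CPM, nearest 0.516). *Tlr4* measured 4.45 CPM in mouse 2 at 0.3 µg/kg (nearest 2.54). *Tlr5* measured 7.49 CPM in mouse 5 at 3 µg/kg (nearest 5.75), the liver of that dose that was inside the vehicle range. *Myd88* was lowest in mouse 4 at 0.3 µg/kg, at 7.63 CPM (nearest 10.9).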

How the results depend on the processing

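At 30 µg/kg the log2 fold change of *Tlr5* ran from -2.71 to -2.38 over 18 alternatives, *Tlr13* from 1.63 to 1.98, *Tlr7* from 1.03 to 1.39 and *Tlr4* from 0.81 to 1.21. Library totals alone turned *Myd88* from -0.166 to 0.046 and moved *Tlr3* from -0.257 to -0.042. They also gave 4996 genes higher and 1222 lower in place of 2700 and 2467 (80.3% higher of those called in place of 52.3%), with 3 pathway genes lower in place of 11, and shifted the median of all genes to 0.232. A minimum fold change of 2 left 1402 genes higher, 597 lower and 1 pathway gene lower. With single mice of the vehicle or 30 µg/kg group left out there were 6 to 12 pathway genes lower, with 7 without vehicle mouse 2 or 4 or mouse 2 at 30 µg/kg and 6 without mouse 1 at 30 µg/kg, and *Tlr12*, at 0.02 with all mice, ran from -0.113 to 0.15. Of the 23 named pathway genes called, 12 lost the call with at least 1 of these mice left out and 11 did with none. Without the 2 livers that stood apart by high macrophage markers, an alternative chosen after seeing the data, 11 pairs of the 10 genes were called in place of 22, and 11 in place of 21 among the 7 genes of immune cells. Livers with low macrophage markers were kept. The relations with the hepatocyte score that were called went from 2 to 1 with library totals alone and to 1 without the 30 µg/kg group (*Tlr2* lost), and to 3 without the 2 livers that stood apart (*Myd88* gained). The cause was not tested. Mice were assigned to the groups at random, with 1 library per mouse, so the design held no pairs. Reads limit *Tlr9* most, with a median of 5 per liver.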
